A study of Mus musculus with 3 samples.

Results

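Of the 143280 peaks in the RARα peak list from mouse liver, 10484 had a score over 20 up to 100 and a summit 1 kb or less from the start of the nearest protein-coding gene, and 1038 of these lay in DNA with few CpG dinucleotides. These 1038 CpG-poor promoter peaks belonged to 905 genes. They were selected on measured values: the RARα peak score, the distance of the summit to a gene start (GENCODE M1 on mouse build mm9), and an observed to expected CpG ratio below 0.4 in the window from 100 bp before to 100 bp after the summit. The ratio is the number of CpG times the window length, divided by the product of the numbers of C and G. Score, position and CpG content of the peaks therefore describe the choice and are not findings. The other 9446 promoter peaks of the same score range and distance, with a ratio of 0.4 or more at 7462 genes, served for comparison. A total of 320 genes had peaks of both kinds.

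All libraries came from livers of wild type male C57BL/6 mice, aged 3 months by the labels, with no treatment named. One library was pulled down with a RARα antibody from Santa Cruz, 1 with an RXRα antibody, and 1 was input DNA. The study used them to place the binding of RXRα and its partner receptors in the liver genome. There was 1 library per antibody, so no comparison here has a replicate check or a p-value, and the 95% intervals given (Wilson for shares, binomial order statistics for medians) cover counting error only. The summed signal of each deposited track, divided by 5 bins per read, came to 9999939 reads for RXRα and 9999292 for input. Their mean signal was 0.603 per 32 bp bin in both. Read counts of single peaks were derived in the same way. The study reports more uniquely mapped RXRα reads than this, so the total of the RXRα track is not the depth of its library. Reads without molecular identifiers are not independent molecules.

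RARα and RXRα are nuclear receptors, transcription factors that bind DNA as a heterodimer and respond to retinoic acid. RXRα also pairs with the receptors for fatty acids, bile acids, oxysterols and xenobiotics, which are abundant in hepatocytes. Each receptor of a pair contacts a 6 bp half-site, and the spacing between the half-sites of a direct repeat favours one pair over another. Most promoters of broadly used genes in mammals lie in CpG islands. Promoters with few CpG are more often those of genes used in a single tissue, such as the plasma protein and detoxification genes of the liver, and some of them have a TATA box that fixes the start of transcription.

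Sequences are shown first for the members in which a direct repeat was found, since a repeat of half-sites is the element that a retinoid receptor pair is known to contact. A half-site was a match on either strand to the core element AGGTCA. The related element GGGTCA was accepted as well. So were the elements with TT in the middle, AGTTCA and the similar GGTTCA. A direct repeat was a pair of half-sites in the same orientation with 0 to 5 bases between (DR0 to DR5). Matches to a repeat thus also count as half-sites, and a match is a description of letters, not of a bound site. Only 13 of the 1038 windows held one (1.25%, interval 0.733 to 2.13%), against 0.349% of windows of the same length around all 22367 protein-coding gene starts. The share was 0.339% at the other promoter peaks (interval 0.24 to 0.478%) and 0.459% at CpG-poor gene starts (interval 0.335 to 0.63%). Windows 500 bp to either side of the members' summits held one at 0.819% (interval 0.512 to 1.31%) and CpG-poor RARα peaks over 1 kb from a start at 1.27%, and the intervals of both meet that of the members. Of the 13, 7 held DR1, which is 0.674% of members against 0.152% of all starts and 0.452% of the distant CpG-poor peaks, and 6 held DR0 (0.578%), against 0.0626% and 0.332%. At the other promoter peaks DR1 was found at 0.169% and DR0 at 0.0635%, and at CpG-poor gene starts each at 0.109%. No member held DR2 to DR5, and a count of 0 in 1038 windows allows a share of up to 0.289%. Each of these spacings was found at 0.0179 to 0.0581% of all starts and 0.1 to 0.176% of the distant CpG-poor peaks. Those shares all lie below the limit, so for each single spacing the absence at members could not be told from them. Of the 15940 distant CpG-poor peaks 203 held a repeat, 53 DR0 and 72 DR1. The remaining share, with only DR2 to DR5, lay above the limit of 0.289%. Of all 22367 starts 78 held a repeat, 14 DR0 and 34 DR1, and the remaining share lay below it. The joint absence of DR2 to DR5 could thus be told from the distant peaks but not from all starts. In the lines that follow, bases are from mm9 on the strand of the gene, with the repeat in capitals and 8 bases to each side. The repeat of Zfp513 is left out because it lies in an untranslated exon, and not every other member with a repeat is shown.
Abcb11 DR1, chr2:69181109-69181137, minus strand: cagaccagAGTTCAAGGGTCAtctgtgtg
Gm17305 DR1, chr11:69178475-69178503, plus strand: ctgaatggAGGTCAAGGGTCAgaaaggag
Upb1 DR1, chr10:74870618-74870646, plus strand: acagaatgTGAACTCTGACCTtgctaaac
Phyhd1 DR1, chr2:30122490-30122518, plus strand: acctctagTGACCTTTGAACTacctctga
Hadh DR1, chr3:130974281-130974309, minus strand: ggaaacttTGACCTTTGACCCagtgcccg
Bcmo1 DR1, chr8:119619701-119619729, plus strand: ttgggaacTGACCTTTGACCTaacacaca
Inhbc DR0, chr10:126806958-126806985, minus strand: tctaagttAGGTCAGGTTCActtggtgg
Gna12 DR0, chr5:141305478-141305505, minus strand: gctaagaaTGACCTTGAACTcctgatcc
Psmd13 DR0, chr7:148067218-148067245, plus strand: ggatccggAGTTCAAGGTCAtcctcctt
Rnf213 DR0, chr11:119253617-119253644, plus strand: actacctaTGACCTTGACCCtggtttgg
Zfp414 DR0, chr17:33765834-33765861, plus strand: ggcatctaAGTTCAAGGTCAacttctgt

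Of the 7 members with DR1, 6 had an RXRα region, and of the 6 with DR0, 2 had one. An RXRα region is a run of bins in which RXRα signal reached 20 times the larger of local and mean input, joined over gaps up to 200 bp and overlapping the peak by 25% of the narrower interval. Abcb11, the bile salt export pump of the hepatocyte, had a RARα score of 22, an RXRα signal of 66.9 per bin over the peak and an input signal of 1.64, an enrichment of 40.7 times input. Upb1, an enzyme of pyrimidine breakdown, had an RXRα signal of 30.2 over an input of 1.28. Both peaks thus stood far above input in the RXRα library. Hadh, a dehydrogenase of fatty acid β-oxidation, had 21.9 over 2.33, an enrichment of 9.37. Bcmo1, which cleaves β-carotene to retinal, is the DR1 member without an RXRα region: its RXRα signal was 2.71 and its input 0.429. That input, from 1.2 reads, was below the mean of 0.603, so the enrichment of 4.50 was taken over that mean. Its summit lay 1 bp from the gene start. Among DR0 members, Inhbc, a subunit of the inhibin and activin family, had an RXRα signal of 19.6 over an input of 1.41, and Zfp414 had 3.93 over 4.33.

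The whole window of Abcb11 and the starts of 3 more members with high RXRα signal are given next, with half-sites and TATA boxes (TATAAA) in capitals and untranslated exons left out.
Abcb11, chr2:69180975-69181175, minus strand: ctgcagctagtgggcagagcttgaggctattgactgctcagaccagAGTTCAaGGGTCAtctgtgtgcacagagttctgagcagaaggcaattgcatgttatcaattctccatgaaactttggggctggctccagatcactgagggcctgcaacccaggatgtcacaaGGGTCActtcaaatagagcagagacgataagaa
Cyp7a1, chr4:6202779-6202865, minus strand: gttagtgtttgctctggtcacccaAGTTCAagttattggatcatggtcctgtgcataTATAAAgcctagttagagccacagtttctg
Crp, chr1:174628125-174628186, plus strand: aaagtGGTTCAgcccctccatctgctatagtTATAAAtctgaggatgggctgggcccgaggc
Nr0b2, chr4:133109230-133109290, plus strand: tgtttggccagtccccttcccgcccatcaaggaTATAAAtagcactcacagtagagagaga
Cyp7a1, the rate-limiting enzyme of bile acid synthesis, had a RARα score of 60 with its summit 15 bp from the start, an RXRα signal of 30.6 and an input of 1.61. Crp, an acute phase protein, had a score of 84, an RXRα signal of 18.8 and an input of 0.615. Nr0b2, which encodes the receptor SHP that dampens bile acid synthesis, had 2 members. The one 39 bp from the start had a score of 59, an RXRα signal of 58.6 and an input of 3.25. The other, 376 bp upstream, had a lower score of 22 and a higher RXRα signal of 138 over an input of 5.12, so score and RXRα signal did not follow each other between these neighbours.

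CpG-poor promoter peaks had more RXRα signal than the other promoter peaks. Of the 1038 members, 481 had an RXRα region, which is 46.3% (interval 43.3 to 49.4%). Of the other promoter peaks 2776 of 9446 had one (29.4%, interval 28.5 to 30.3%), and of all 10484 promoter peaks 31.1%. The difference was 17.0 percentage points. By gene, 438 of the 905 member genes (48.4%) had an RXRα region at a member, against 2568 of 7462 genes (34.4%) at the other peaks. The median RXRα signal over the peak was 11.8 (interval 10.8 to 12.9) for members and 6.57 (interval 6.47 to 6.67) for the others, with quartiles of 5.50 and 23.8 against 4.25 and 10.1. Input signal was higher at members too, with a median of 2.06 against 1.5. With regions set against mean input only, the shares were 69.0% and 57.4%, a difference of 11.6 percentage points. Beyond that, the part of this input difference in the share of regions was not tested. The ratio of RXRα to input, with input taken as at least the mean, had a median of 6.04 (interval 5.54 to 6.76) at members and 4.54 (interval 4.45 to 4.62) at the others. The intervals of the 2 groups did not overlap in either measure.

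The difference lay among strongly enriched peaks. An enrichment of 10 or more was found at 31.1% of members and 14.2% of the others, while the first quartiles of enrichment were close, 2.94 and 2.75. With RXRα regions set at 30 times input, 32.8% of members and 14.8% of the others had one. At 10 times input the shares were 70.6% and 63.7%, and at 5 times input they were 85.9% and 86.9%, with members slightly lower. Nearly all RARα promoter peaks of both kinds thus had some RXRα signal above input. Enrichment below 1 was found at 3.95% of members and 2.48% of the others.

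**Figure D1:**
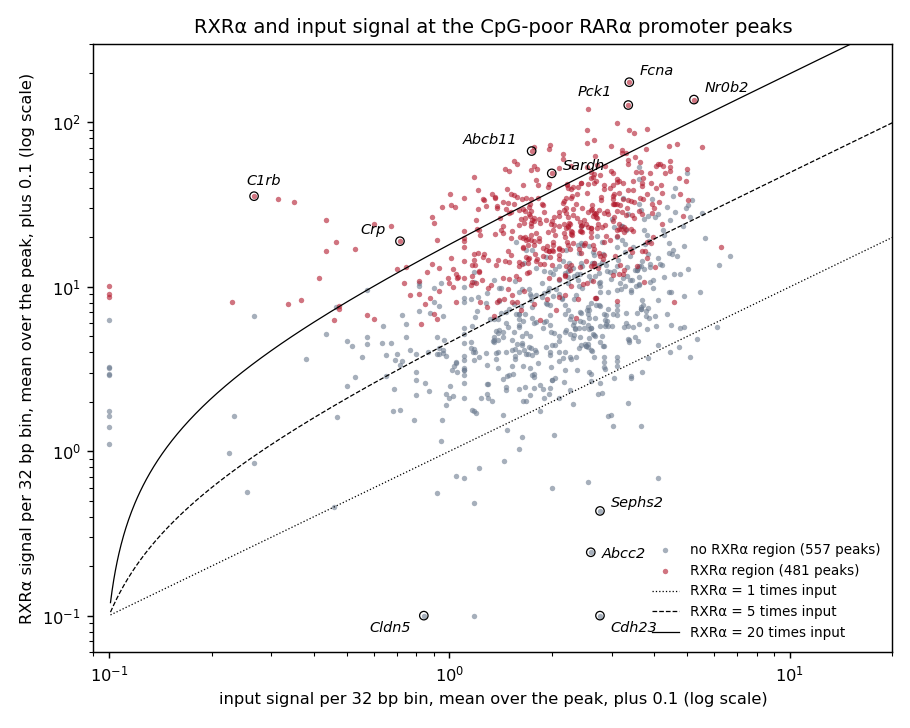
Mean RXRα signal (vertical) against mean input signal (horizontal) per 32 bp bin at each of the 1038 CpG-poor promoter peaks, both with 0.1 added and on log scales; red peaks overlap an RXRα region (481) and grey ones do not (557), and lines mark 1, 5 and 20 times input. Circles mark named members: Fcna, Nr0b2 and Pck1 are highest in RXRα, C1rb owes its ratio to low input, and Cdh23 and Cldn5 have no RXRα signal.

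The 10 members with the highest RXRα enrichment ranged from 40.5 to 58.9, and they differed in how much input lay behind the ratio. Fcna, a ficolin that binds sugars in innate defence, had an RXRα signal of 176 over an input of 3.27 at a peak 990 bp upstream of its start, and 9030619P08Rik had 121 over 2.46. These signals were the 2 highest of the 10. C1rb, a complement protease with a close relative in the genome, had 35.5 over 0.167, which corresponds to 85.2 RXRα reads and 0.4 input reads in the peak. Atp2c2, a calcium pump of the Golgi, had 34.1 over 0.214, Whamm had 32.6 over 0.25 and Slc25a13, the mitochondrial aspartate and glutamate carrier, had 25.3 over 0.333. For these 4 the input was below its mean of 0.603, so the ratio rests on that mean and on very few input reads. In all, 5.59% of members and 12.5% of the others had input below the mean. Epha1, an ephrin receptor, had 71.2 over 1.67, Lrrc33 had 46.5 over 1.08 and Gm17305, whose DR1 is shown above, 58.6 over 1.44.

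At the other end, 3 members had no RXRα signal at all. Cdh23, a cadherin of hair cell bundles, had a RARα score of 25 and an input of 2.67, Cldn5, a claudin of endothelial tight junctions, a score of 26 and an input of 0.741, and Adam32 a score of 29 and an input of 1.08. Abcc2, the canalicular export pump for conjugated anions, had 2 members that differed widely. The peak 143 bp inside the gene had a score of 88, an RXRα signal of 24.2 and an input of 4.11, while the peak at 573 bp had a score of 32, an RXRα signal of 0.143 and an input of 2.50. Sephs2, which makes selenophosphate, had an RXRα signal of 0.333 over an input of 2.67 at a peak 848 bp into the gene. Except for the Abcc2 peak at 143 bp, these peaks passed the RARα score limit with RXRα at or below input.

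The 10 members with the highest RARα score were named because of that score, which ran from 94 to 99, and 9 of them are given here. Most are genes of hepatocyte metabolism and secretion: Fbp1, a bisphosphatase of gluconeogenesis, Slc27a5, which couples bile acids to coenzyme A, Sardh, which breaks down sarcosine, Serpina10, an inhibitor of coagulation, Agt, the precursor of angiotensin, Cyp2d10, a cytochrome P450, and the carboxylesterases Ces3a and Ces3b. The list also held 9030617O03Rik. Their RXRα signal ranged widely, from 48.9 over an input of 1.90 at Sardh to 4.39 over 1.48 at Ces3b, and 7 of the 10 had an RXRα region. Fbp1 had 25.4 over 1.82, Agt 29.4 over 2.07 and Slc27a5 11.4 over 2.14. Ces3a and Ces3b, and the Cyp2d genes, have close copies in the genome, and reads could have been split between them. Across the 1038 members the rank correlation of RARα score with RXRα enrichment was weak (Spearman's rho of 0.0733), as it was over the 9446 other peaks (0.0983).

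RXRα signal was centred on the RARα summits. In the bin of the summit the median RXRα signal was 16.0 at members and 9.0 at the others, and 512 bp away on either side it was 3.0 and 2.0, while input had a median of 2.0 and 1.0 at the summit. The highest RXRα bin within 1 kb had a median of 39.0 at members and 19.0 at the others, and it lay within 96 bp of the RARα summit at 43.9% of members and 37.7% of the others. At a distance of 2 kb to either side the median RXRα enrichment was 1.14 around members and 0.769 around the others, and at 5 kb 0.878 and 0.533. Members thus also stood in surroundings with somewhat more RXRα signal.

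**Figure D2:**
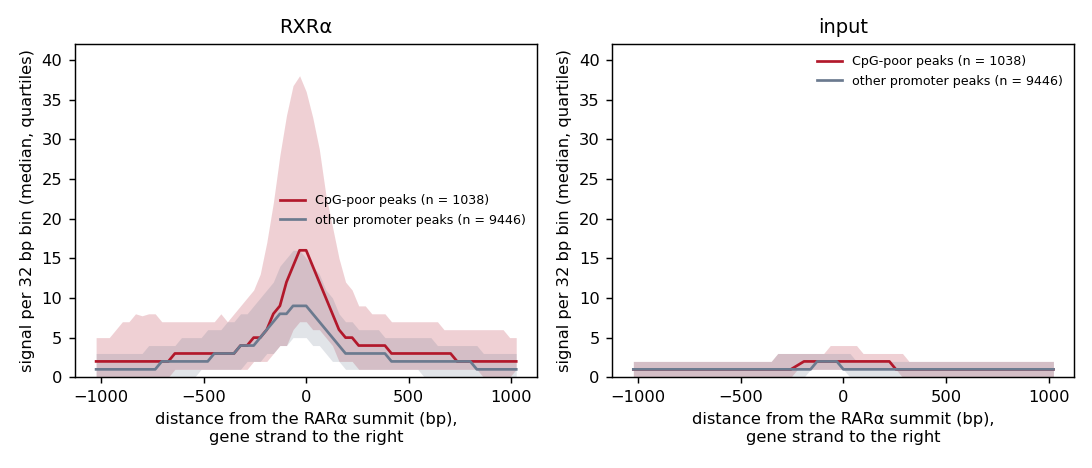
Median RXRα (left) and input (right) signal per 32 bp bin by distance from the RARα summit, with the gene's strand to the right and the quartiles shaded, for 1038 CpG-poor (red) and 9446 other promoter peaks (grey). The RXRα median at the summit is 16.0 against 9.0, and both fall to 3.0 or less 512 bp away.

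The members differed from the other promoter peaks in score, place and base composition, so the shares were compared within classes of each. The median RARα score was 32 at members and 40 at the others, the median distance of the summit from the gene start 377.5 bp and 109 bp, and the median GC content of the window 52.2% and 65.7%. Among peaks with scores of 21 to 30, 39.5% of members and 22.2% of the others had an RXRα region, and among scores of 51 to 100, 60.1% (interval 53.1 to 66.8%) and 36.3%. The gap was widest at the gene start itself: with summits 100 bp or less away, 55.8% of 285 members and 27.7% of 4480 others had a region, and over 300 bp away 42% and 32.4%. At a GC content over 45 up to 55% the shares were 44.9% and 29.3%, and over 55 up to 65% 52.7% and 29.6%. Only 13 members had over 65% GC, with a share of 30.8% (interval 12.7 to 57.6%) that could not be told from 29.4% at this number. When the other peaks were weighted to the members' spread over 3 classes of score, 3 of distance and 4 of GC content together, their share was 29.7%, and 16.7 percentage points remained.

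**Figure D3:**
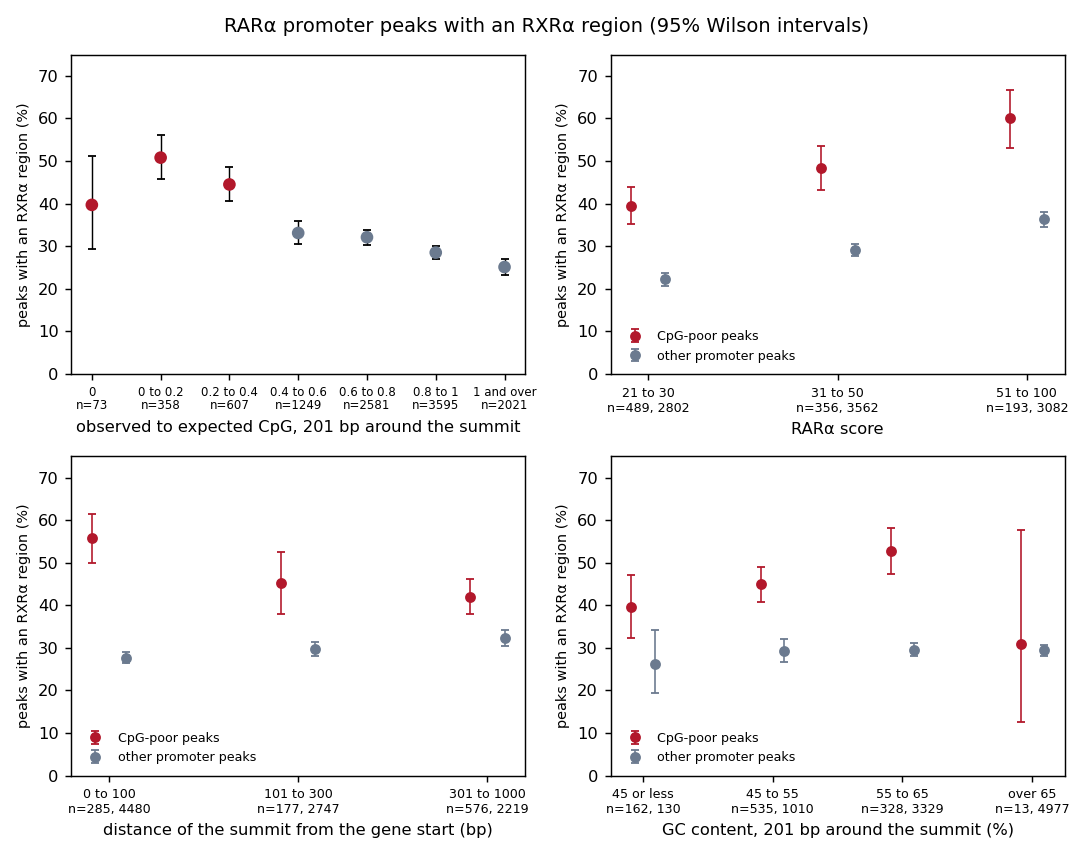
Percent of RARα promoter peaks with an RXRα region by CpG ratio, RARα score, distance to the gene start and GC content, with 95% Wilson intervals and the number of peaks under each class (CpG-poor first, then other). CpG-poor peaks (red) lie above the other promoter peaks (grey) in every class of score and distance and in the classes up to 65% GC.

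Along the CpG ratio itself, the share with an RXRα region was 50.8% at ratios above 0 and below 0.2, 44.5% from 0.2 to 0.4, 33.1% from 0.4 to 0.6, 32.1% from 0.6 to 0.8, 28.5% from 0.8 to 1 and 25.1% at 1 and over. The 73 members without any CpG had a share of 39.7% (interval 29.3 to 51.2%). Median enrichment did not follow this order above the limit: it was 7.26 below 0.2 and 5.75 from 0.2 to 0.4, but between 4.44 and 4.61 in each class from 0.4 up. Away from promoters the classes were closer. Of CpG-poor RARα peaks 1 to 10 kb from a start 35.0% had an RXRα region, and of those farther away 31.6%, against 33.7% and 29.3% of the peaks with more CpG at the same distances. Median enrichment had the opposite order there, 4 for CpG-poor and 4.52 for other peaks at 1 to 10 kb, and 3.32 and 3.56 farther away. No test of this difference was possible with 1 library.

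The peaks nearest to each limit of the rule varied in RXRα on both sides of it. Nsun4 and Ltbr had the highest CpG ratios among members, 0.3994 and 0.3997, with enrichments of 6.33 and 19.5, and Zbtb45 and Lipa, just outside at 0.4 and 0.4005, had 2.33 and 4.42. AI314180 and Flna had summits 999 bp from a start, with enrichments of 9.58 and 3.98, and Tmtc2 and 1100001G20Rik, at 1003 bp, had 8.25 and 26.5. Above the score limit lay 38 more CpG-poor promoter peaks, with scores of 103 to 223, of which 68.4% had an RXRα region, among them Vtn and Fcgrt at 103 and Ttr at 104. At the lower limit, 92 peaks with a score of 20 had a share of 34.8% and the 65 members with a score of 21 one of 46.2%.

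The promoters behind the members were of 2 kinds. At 538 members (51.8%) the window around the gene start was CpG-poor as well, and 51.9% of these (interval 47.6 to 56.1%) had an RXRα region. The other 500 lay beside a gene start with more CpG, at a median distance of 557 bp, and 40.4% had a region (interval 36.2 to 44.8%). A CpG-richer RARα peak over a score of 20 lay within 1 kb of 416 members (40.1%), and 44.2% of these had a region, against 47.7% of the 622 without such a neighbour. Summits lay outside genes at 40.8% of members, in introns at 29.6%, in untranslated exons at 24.4% and in coding exons at 3.95%. The corresponding shares of the other promoter peaks were 34%, 12%, 42.5% and 10.2%.

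CpG-poor starts seldom had a RARα peak. Of 22367 protein-coding gene starts 8275 were CpG-poor, and 733 of them (8.86%, interval 8.26 to 9.49%) had a RARα peak of the score range within 1 kb, against 8012 of 14092 other starts (56.9%). Over the 500 bp around these starts, RXRα enrichment had a median of 4.77 at CpG-poor and 4.69 at other starts with a RARα peak, and an RXRα region was found at 39.3% and 28.9%. At starts with no RARα peak of any score, the background for these values, the medians were 0.311 and 0.488 and the shares 1.59% and 1.87%. Median input at these starts was 0.312 and 0.294, below the mean of 0.603, so most of these ratios rest on that mean. At the starts with a RARα peak it was 1.76 and 1.53. RXRα enrichment thus went with RARα peaks at both kinds of start, and so did input signal.

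Gene lists of hepatocyte secretion and metabolism held many member genes, although 749 of the 905 member genes were in none of them. The lists counted here were written for this tissue with earlier results known, and they are read beside the 4.07% of all 22225 protein-coding gene symbols that were the nearest gene of a member. Counts of list genes with an RXRα region at a member are read beside the 48.4% of all 905 member genes. Of 170 genes in the lists for plasma proteins, coagulation, acute phase and complement, apolipoproteins and amino acid catabolism, 92 had a member (54.1%, interval 46.6 to 61.4%), and 25 more had only another promoter peak. Of 106 markers of other liver and blood cells 6 had a member (5.66%, interval 2.62 to 11.8%). CpG-poor starts are common in both sets, 73.5% and 76.4%. Among genes with a CpG-poor start 81 of 125 in the hepatocyte lists (64.8%) and 5 of 81 in the other cell lists (6.17%) had a member, against 5.40% of all 8248 symbols with such a start. None of 1113 olfactory receptor genes had one, which allows up to 0.270%, although 95.8% of them have CpG-poor starts.

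**Figure D4:**
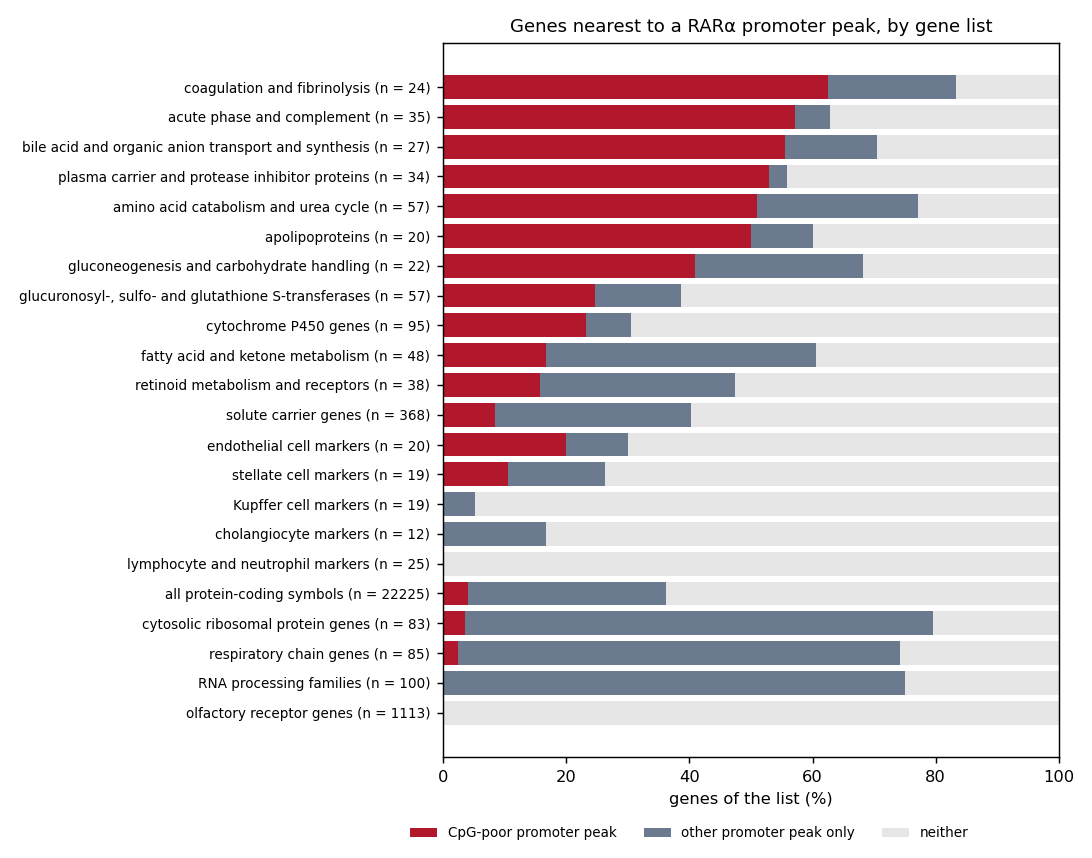
Percent of the genes of each list that are nearest to a CpG-poor RARα promoter peak (red), only to another promoter peak (dark grey) or to neither (light grey), with the number of genes in each list. The red part is 40.9% or more in the hepatocyte secretion, amino acid, bile acid and gluconeogenesis lists, 4.07% over all genes, and 3.61% or less in the ribosomal, respiratory chain, RNA processing and olfactory lists.

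Coagulation and fibrinolysis had the highest share, with 15 of 24 genes (62.5%), and 12 of the 15 had an RXRα region at a member. They included prothrombin (F2), factor VII (F7), factor X (F10), factor V (F5), plasminogen (Plg) and fibrinogen chains. F2 had peaks 24 bp and 679 bp upstream, with RARα scores of 87 and 27, RXRα signals of 22.2 and 31.7 and inputs of 1.92 and 2.25. Kng2, a kininogen, had an RXRα signal of 39.1 over 2.18, Proz, a cofactor in the inhibition of factor X, 20.7 over 1.13, and F5 7.76 over 0.235. The fibrinogen chains stood lower: Fga had 4.25 over 2.75 at a score of 69 and Fgb 4.27 over 2.73 at a score of 37, neither with a region. F7, F10 and Proz are neighbours on chromosome 8 and all had members, as did Hrg, Kng2 and Kng1 on chromosome 16 and Itih4, Itih3 and Itih1 on chromosome 14. In total 12 runs of 3 or more adjacent protein-coding genes, holding 39 genes, were made up of member genes.

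Acute phase and complement genes had members at 20 of 35 (57.1%) and plasma carrier and protease inhibitor genes at 18 of 34 (52.9%), with RXRα regions at 14 and 12 of these genes. Mbl1, a mannose-binding lectin, had an RXRα signal of 42.2 over an input of 2.11, Serping1, which inhibits C1, 11.2 over 0.312, and the peak of factor B (Cfb) 388 bp into the gene 34.7 over 1.26. Together with Crp these were the highest of their list. Ambp, the precursor of bikunin, had 53.2 over 2.44, Ahsg, fetuin A, 23.7 over 1.5, Hp, haptoglobin, 24.3 over 1.56 and Serpina1b, an α1-antitrypsin, 55.7 over 4.06. The Serpina1 genes are near-identical copies, and the counts of single copies are uncertain. Of 20 apolipoprotein genes and partners 10 had a member and 7 of these a region. Apon had 68.9 over 1.86, Lcat, which esterifies cholesterol in plasma, 69.1 over 3.69, Apof 50 over 3.44 and Apoc1 39.9 over 2.13. Within the cluster on chromosome 9, Apoc3 had 23.1 over 2.71 at 329 bp, while Apoa5 had 5.10 over 2.53.

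Amino acid catabolism and the urea cycle had members at 29 of 57 genes (50.9%), 22 of them with a region, led by Csad, which makes hypotaurine (31.1 over 1.28), Upb1, Uroc1, urocanase (65.5 over 3.11), and Gpt, alanine aminotransferase (49.6 over 2.50). Bile acid and organic anion genes had members at 15 of 27 (55.6%), 12 with a region. Abcb11, Nr0b2 and Cyp7a1, described above, were among them. Gluconeogenesis and carbohydrate handling had members at 9 of 22 genes (40.9%), 6 with a region. Pck1, the rate-limiting enzyme of gluconeogenesis, had an RXRα signal of 128 over an input of 3.25 at a peak 259 bp upstream, G6pc, glucose-6-phosphatase, 71.7 over 4.30, Gckr, which regulates glucokinase, 33.7 over 1.17, and Igf1 28.8 over 1.57. Fatty acid and ketone metabolism differed in kind of promoter: 8 of 48 genes (16.7%) had a member and 21 more (43.8%) only another promoter peak. Its members included Acox2, a peroxisomal oxidase, with 24 over 0.5, Hsd17b4, the peroxisomal bifunctional enzyme, with 73.1 over 1.87, Decr1 with 10 over 0.714 and Acsm5 with 29.2 over 2.65.

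Of 95 cytochrome P450 genes 22 had a member (23.2%), 14 of them with a region. Next to Cyp7a1, Cyp2d22 had 31.3 over 0.909, Cyp2a22 33.9 over 1.54 and Cyp2f2 19.8 over 1. Glucuronosyl-, sulfo- and glutathione S-transferase genes had members at 14 of 57 (24.6%), 7 with a region. Of their 17 member peaks 41.2% had one (interval 21.6 to 64.0%), against 46.3% of all members. Sult1d1 had 29.9 over 2.10 and Gstt2 26.9 over 1.62, and a run of 5 adjacent Ugt2b genes on chromosome 5 had members with 2 regions among 5 peaks. These families are made of similar copies. Serpin genes had members at 9 of 60, 8 of them with a region, and solute carrier genes at 31 of 368 (8.42%), with Slc25a13, Slc25a47 (78.2 over 2.55), Slc39a8 (12.8 over 0.6) and Slc35d1 (46.3 over 2.54) the highest in RXRα enrichment.

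Of 38 genes of retinoid metabolism and its receptors 6 had a member, 15.8%, and 3 of these a region. Rdh7, a retinol dehydrogenase, had an RXRα signal of 54.0 over an input of 2.17, Bco2, which cleaves carotenoids, 18.6 over 2.74, and Ces1d, a carboxylesterase, 25.6 over 4.33 with no region. Bcmo1 and Aldh1a1, a retinal dehydrogenase, were on the list too, and no RAR or RXR gene was among the members. A list of 49 nuclear receptor genes was added after the names of member genes had been seen, so its share, 9 genes (18.4%), is no independent count. All 9 had an RXRα region at a member, among them Esrra with 40.7 over 3.58, Nr1d1, which represses clock genes, with 42.6 over 3.12, Nr1i2, the pregnane X receptor, with 19.0 over 1.73, and Nr1h4, the bile acid receptor FXR, with 10.6 over 3.62. A list of 61 interferon-stimulated genes was chosen the same way, and 21 of them had a member (34.4%), 10 with a region. Of their 24 member peaks 45.8% had a region (interval 27.9 to 64.9%), near the 46.3% of all members. The highest in RXRα enrichment were Lgals3bp with 51.3 over 1.64, Ifitm3 with 41.5 over 1.54, Mx2 with 32 over 1.77 and Irf9 with 27.7 over 1.61.

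Counts of members among markers of other liver and blood cells were small. The intervals of the cell types overlapped, so no difference between them could be told. Endothelial markers had a member at 4 of 20 genes, 20% (interval 8.07 to 41.6%), above the 4.07% over all genes, but none had an RXRα region: Stab2 had 2.8 over 1.4, Gpr182 2.38 over 0.905, Clec4g 1.31 over an input of 0 and Stab1 6.58 over 0.167. Stellate cell markers had 2 of 19 (10.5%, interval 2.94 to 31.4%), among them Gfap (5.27 over 1.27). None of 19 Kupffer cell, 12 cholangiocyte, 25 lymphocyte and neutrophil or 11 erythroid markers had a member, which at these sizes allows up to 15.8%, 25%, 12% and 27.3%. Lectin, Fc receptor and chemokine genes had 4 of 86 (4.65%), Ccl9 (28.2 over 2.56), Cxcl1 (15.3 over 3.30), Clec2d (9.20 over 4.30) and Clec4g. In liver chromatin fewer cells of a type and less binding per cell cannot be told apart.

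Most lists of broadly used genes had members at shares near or below that over all genes and other promoter peaks at higher shares. Of 83 cytosolic ribosomal protein genes 3 had a member (3.61%, interval 1.24 to 10.1%), Rpl36, Rpl7l1 and Rps27a, none with a region, and 63 (75.9%) had only another promoter peak, against 32.1% of all genes. Mitochondrial ribosomal genes had 2.67% (Mrpl38 and Mrps18b of 75), respiratory chain genes 2.35% (Atp5l and Cox6b1 of 85), proteasome genes 2.08% (Psmd13 of 48) and RNA processing genes 0 of 100, which allows up to 3%. The intervals of the first 3 include 4.07%. Histone cluster genes differed, with members at 7 of 67 (10.4%, interval 5.15 to 20%) and only another promoter peak at 35.8%. None of the 7 had a region, and RXRα signals ran from 3.33 to 6.69 in Hist1h2ak, Hist1h4b, Hist1h4d and Hist1h2bb. Keratin and defensin lists had 1 each, Krt8 (17.9 over 1.60) of 92 and Lcn2 (24.1 over 2.07) of 65, and none of 322 vomeronasal receptor genes had one.

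RXRα signal differed between the lists within each class of peak. At members of the 156 genes in a hepatocyte or metabolic list 62.4% of 202 peaks (interval 55.5 to 68.8%) had a region, and at members of the remaining 749 genes 42.5% of 836 (interval 39.2 to 45.8%). Among the other promoter peaks the shares were 55.8% of 113 (interval 46.6 to 64.6%) and 29.1% of 9333 (interval 28.2 to 30%). Within the listed genes the 2 classes could not be told apart at this number of peaks. Outside them members remained higher, with median enrichments of 5.39 and 4.51.

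Half-sites were more frequent at members than at the other promoter peaks and went with more RXRα. A half-site was found in 45.7% of members' windows (474, interval 42.7 to 48.7%), 24.4% of the other promoter peaks, 37.9% of windows 500 bp to either side of the members' summits, 37.8% of CpG-poor gene starts and 28.0% of all starts. CpG-poor RARα peaks over 1 kb from a start held one at a like share, 44.4% (interval 43.7 to 45.2%). Matches were spread over the window, with 50.6% of the 636 in members lying within 50 bp of the summit. Members with a half-site had an RXRα region at 56.8% (interval 52.3 to 61.1%) and those without at 37.6% (interval 33.7 to 41.7%), and their median enrichments were 8.21 and 4.86. The share grew with the number of matches, from 37.6% with 0 to 52.3% with 1, 65.6% with 2 and 80.6% of 31 members with 3 or more (interval 63.7 to 90.8%). At the other promoter peaks it went from 25.6% to 52.4%, and at CpG-poor peaks over 1 kb from a start it was 43.4% with and 24.0% without a half-site. The order held within members 300 bp or less from the start (61.3% with and 44.5% without a half-site), farther away (53.5% and 31.6%), with scores of 21 to 30 (49.1% and 30.7%) and with higher scores (64.0% and 43.3%).

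**Figure D5:**
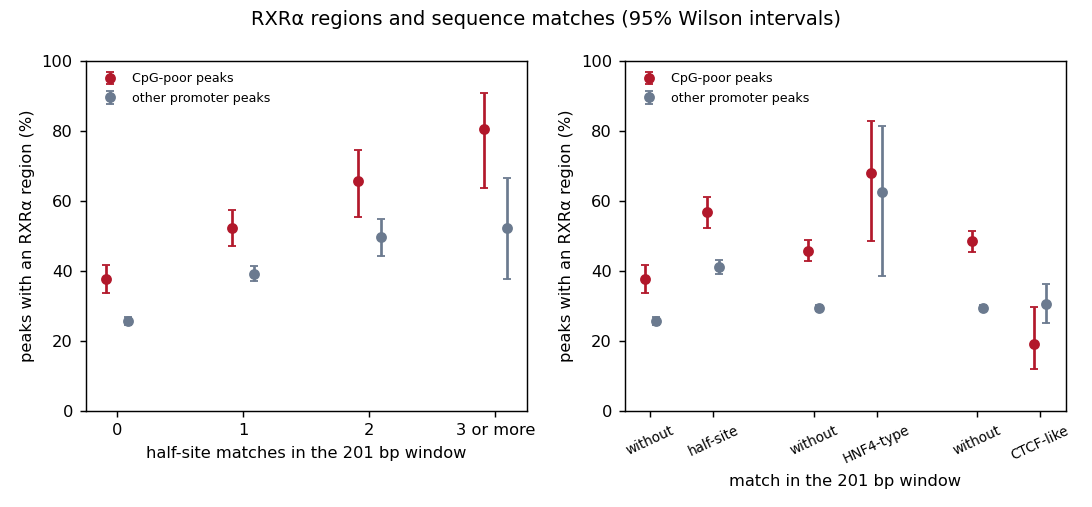
Percent of CpG-poor (red) and other (grey) promoter peaks with an RXRα region, with 95% Wilson intervals, by number of half-site matches in the window (left) and with or without a half-site, HNF4-type or CTCF-like match (right). Among CpG-poor peaks the share goes from 37.6% with 0 half-sites to 80.6% with 3 or more, and is 19.2% with a CTCF-like match.

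Where the highest RXRα bin lay over 200 bp from the RARα summit, at 441 members, the half-site share was 38.1% around the RARα summit and 59.0% around the RXRα maximum. At the 597 members with the maxima within 200 bp the shares were 51.3% and 58.6%, and 59.1% of them had an RXRα region, against 29.0% of the others. The windows around RXRα maxima thus held half-sites at like shares in both sets.

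A CTCF-like match (CCANNAGNNGGC, in which N is any base) went with little RXRα at members. CTCF is an insulator protein that shapes chromatin loops. The match was found in 73 members (7.03%, interval 5.63 to 8.75%), 2.86% of the other promoter peaks, 1.69% of the windows beside the members and 1.70% of all gene starts. Of the 73, 14 had an RXRα region (19.2%, interval 11.8 to 29.7%), against 48.4% of the 965 members without a match, and median enrichments were 2.32 and 6.47. The difference was present at scores of 21 to 30 (18.4% and 41.2%) and above (20% and 54.7%). At the other promoter peaks the shares were 30.4% with and 29.4% without a match. Among the CpG-poor RARα peaks over 1 kb from a start the match was found in 21.6%, and 9.53% of those had an RXRα region against 39.0% of the rest.

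Other sequences were searched in the same windows. The HNF4-type element CAAAGTCCA, bound by the hepatocyte receptor HNF4α, was found in 2.41% of members and 0.169% of the others, 0.246% of all starts and 0.193% of the windows beside the members. Its 25 members, which included Lcat, Proz, Cfb, Cyp8b1, Baat and Sord, had an RXRα region at 68.0% (interval 48.4 to 82.8%), against 45.8% of those without, intervals that meet. The FOXA element TGTTTAC, or its variant with G as the last purine, TGTTTGC, was found in 7.71% of members and 3.30% of the others, with 4.39% at all starts, the HNF1 element GTTAATNATT in 1.06%, 0.148% and 0.224%, and the C/EBP element TTGCNNAA in 11.3%, 4.23% and 5.56%. CpG-poor gene starts held the HNF4-type element at 0.411%, FOXA at 6.86%, HNF1 at 0.447% and C/EBP at 8.24%, and CpG-poor RARα peaks over 1 kb from a start held them at 1.29%, 10.6%, 0.546% and 11.5%. For FOXA and C/EBP the distant peaks were thus as high as the members or higher. FOXA members had a region at 58.8% (interval 47.8 to 68.9%), against 45.3% of members without the match (interval 42.2 to 48.5%). C/EBP members had one at 50.4% (interval 41.5 to 59.3%), against 45.8% of those without (interval 42.6 to 49.0%). For both elements the intervals meet. These elements hold no CpG but are rich in A and T, and the windows 500 bp from the members held FOXA at 5.06% and C/EBP at 9.10%. The CCAAT box, followed by CA or GA, was found in 6.17% of members and 6.46% of the others, and an interferon response element, GAAANNGAAA, in 2.22% and 1.56%, with 9.14% and 2.08% at all starts.

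Elements with a CpG were tied to the rule and are given only as description. GGGCGG, the SP1 box, was found in 12.8% of members and 56.2% of the others, CCGGAAG in 2.22% and 15.4%, GCATGCGC in 0.0963% and 3.83%, and TGACGTCA in none of the members and 2.06% of the others, with 40%, 9.39%, 2.58% and 1.93% at all gene starts. The TATA box was found anywhere in the window at 9.25% of members (interval 7.63 to 11.2%), 2.59% of the others and 8.21% of all starts. CpG-poor gene starts held it at a higher share, 14.8%, and the windows 500 bp from the members at a like share, 8.57% (interval 7.44 to 9.86%). At 20 to 40 bp upstream of the start it was present in 22 of the 905 member genes (2.43%, interval 1.61 to 3.65%), 0.728% of the 7142 genes with only another promoter peak, 4.50% of CpG-poor starts and 2.38% of all starts. Members with a TATA box in the window had an RXRα region at 46.9%, near the 46.3% without.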

How the data were processed

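Chromatin immunoprecipitation libraries from wild type mouse liver (1 RARα, 1 RXRα, 1 input) were used as deposited. The submitters' processing notes name CASAVA 1.4, Bowtie and MACS and build mm9, while the study's methods name a later mouse build for alignment. For RXRα and input the authors deposited signal, whole-number coverage of extended reads in 32 bp bins. For RARα they deposited a peak list with a score, whose reference level is not stated, and a false discovery rate in percent, the latter not used to select peaks.

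Peaks were assigned to the nearest of 22367 protein-coding gene starts (GENCODE M1) and sequence was read from the same build. RXRα enrichment is mean signal over the peak divided by mean input, tracks scaled to the same mean and input at least 0.603. RXRα regions were bins of at least 20 times the larger of local and mean input, joined within 200 bp. Gaps in coverage counted as 0. No test across samples was possible. Scripts were tested on simulated data (Python 3.11.15, numpy 2.4.6, pandas 2.3.3, scipy 1.17.1, matplotlib 3.10.9). Members and gene lists were chosen with earlier results of these data known. Genes were named by rule: the 10 highest RARα scores, the 10 highest and 5 lowest RXRα enrichments, up to 4 members of each list by enrichment, the peaks at each limit, and members with a direct repeat or TATA box for sequences. Further genes named were chosen after their values were seen. Alternatives for CpG limit and window, distance, gene starts, score and RXRα regions were recomputed. Some members that met these rules are not reported here by name, and stay in all counts.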

Additional observations from a re-analysis of the deposited data

How the results depend on the processing

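With 1 library per antibody no replicate could be left out, and no paired analysis was possible because the groups have 1 sample each. The number of members was 619 at a distance limit of 500 bp, 1783 at 2 kb and 549 at scores over 30, and within 1.5 times the main 1038 in the other 6 alternatives. The percent of members with an RXRα region was 49.6% at a CpG limit of 0.3, 41.9% at 0.5 and 49.8% within 500 bp. It was 52.5% at scores over 30, and 69.0% with mean input only, against 57.4% of the other promoter peaks. With regions at 10, 30 and 5 times input it was 70.6%, 32.8% and 85.9%, and at 5 times it was below the 86.9% of the other promoter peaks, the only one of 18 alternatives that turned the direction. The ratio of median RXRα enrichment, 1.33, was 1.51 at a CpG limit of 0.3, 1.19 at 0.5 and 1.80 with mean input only, and stayed above 1 in all 15 alternatives. Chosen after seeing the data, the subset whose gene start has the same CpG class as the peak gave 51.9% and 1.52. Leaving out the mitochondrial genome from the means, or peaks with a stronger RARα neighbour within 1 kb, gave 45.9% and 49.2%. The cause of these changes was not tested. Depth limits single peaks: one with input near 0 has a ratio set by the genome mean.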
